A study of Mus musculus with 9 samples.

Results

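Cytochrome P450 genes outside the Cyp1 family were examined in whole lungs of mice that had breathed an aerosol of a heated tobacco product, cigarette smoke or air. A gene belonged to the set if its symbol began with Cyp and a digit, leaving out the Cyp1 and Cyp26 families and Cyp51. Symbols came from matching each probe's accession to mouse RefSeq genes. The array carried 94 such genes of 34 subfamilies, out of 22911 symbols, on 114 probes, and 17 of the genes had several probes. Annotated pseudogenes made up 5 of them. The signal was high enough to test 50 of the 94.

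The mice were male C57BL/6J, 12 weeks old at the start, and were exposed for 6 months. The IQOS group breathed a 3.5% aerosol of IQOS, a device that heats tobacco without burning it. The CS group breathed 3.5% cigarette smoke. The air group breathed fresh air. Each group had 3 arrays, numbered as in the labels, and no group carried a transgene or drug in the labels. The RNA came from the whole lung, so fewer cells of a type and less RNA per cell cannot be told apart.

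P450 enzymes are haem proteins that insert an oxygen atom into a substrate, taking electrons from cytochrome P450 reductase in the endoplasmic reticulum or from ferredoxin in mitochondria. Members of the Cyp2 and Cyp3 families oxidise foreign compounds, among them nicotine and the nitrosamines of tobacco, and Cyp4 and Cyp2j enzymes oxidise fatty acids and eicosanoids. Other families make or break down bile acids, steroid hormones and vitamin D. In the mouse lung, club cells of the bronchioles are the best known site of P450 enzymes such as Cyp2f2, Cyp2a5, Cyp2b10 and Cyp4b1.

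Signals are given as log2 values relative to the 75th percentile of the same array, so 0 is that percentile and each unit is a doubling. The percentile lay between 973.3 and 1098 intensity units, between 64.3% and 68.8% of probes on an array were well above background, and 0 spots were saturated. All 10 type II cell markers were well above background on every array. The IQOS group had a slide to itself, while CS and air shared the other, so any effect of slide cannot be told apart from that of IQOS. The IQOS arrays lay in the first row of their slide and the CS arrays in the second, with air 1 and 2 in the first row and air 3 in the second. Slide and row were read from the parts of each array's barcode, since the labels do not give them. A gene was called at an adjusted p under 0.05 from limma, with Benjamini-Hochberg adjustment over all tested probes.

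Cyp2a genes carried the largest called differences, so the promoters of their 3 tested members are printed, 300 bases around the start of each gene, from RefSeq on GRCm38.p6. They lie at chr7:26835089-26835388 on the plus strand for Cyp2a5, chr7:26306942-26307241 on the plus strand for Cyp2a4 and chr7:26939337-26939636 on the minus strand for Cyp2a22. Capitals mark every match to 1 of 4 motifs on either strand.
Cyp2a5: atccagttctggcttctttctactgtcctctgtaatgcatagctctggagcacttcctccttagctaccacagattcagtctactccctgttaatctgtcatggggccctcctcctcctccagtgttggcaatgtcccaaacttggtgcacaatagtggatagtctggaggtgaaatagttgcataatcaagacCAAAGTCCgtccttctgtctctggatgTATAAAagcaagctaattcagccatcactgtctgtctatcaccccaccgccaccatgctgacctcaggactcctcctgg
Cyp2a4: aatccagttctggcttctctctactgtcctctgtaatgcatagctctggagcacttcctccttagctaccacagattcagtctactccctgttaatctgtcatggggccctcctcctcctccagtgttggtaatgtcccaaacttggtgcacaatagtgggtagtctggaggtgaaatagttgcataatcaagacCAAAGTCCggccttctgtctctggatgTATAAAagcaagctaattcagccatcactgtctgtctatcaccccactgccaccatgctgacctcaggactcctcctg
Cyp2a22: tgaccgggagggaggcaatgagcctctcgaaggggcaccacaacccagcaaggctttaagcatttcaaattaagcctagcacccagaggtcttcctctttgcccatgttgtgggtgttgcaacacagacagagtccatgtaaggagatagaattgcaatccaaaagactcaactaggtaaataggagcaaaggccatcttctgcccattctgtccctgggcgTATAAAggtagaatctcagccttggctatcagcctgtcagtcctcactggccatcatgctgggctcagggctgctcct
The Cyp2a5 and Cyp2a4 windows were 97.7% identical when aligned, and Cyp2a22 shared 53.9% with Cyp2a5 and 55.5% with Cyp2a4. The motifs searched were TGACNNNGC, the core of the antioxidant response element, GCGTG, the core of the xenobiotic response element, CAAAGTCC, the core of a site bound by hepatocyte nuclear factor 4, and TATAAA, the TATA box. The last pair was chosen after the sequences were seen. TATAAA stood in all 3 windows, and 13.6% of all 32851 promoters held it. CAAAGTCC stood in those of Cyp2a5 and Cyp2a4, and 1.4% of all promoters held it. The letters TGACNNNGC and GCGTG, held by 12.4% and 32.4% of all promoters, were not in these windows.

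The first question was which P450 genes differed after cigarette smoke. In CS lungs, the 3 tested Cyp2a genes were about 3 times as high as in air lungs, Cyp3a13 was also higher, and Cyp2j9 and the pseudogene Cyp4b1-ps2 were lower. These 6 calls, 4 higher and 2 lower, came from 50 tested members, which is 12%. Over all 16590 genes tested, 11.7% were called, 5.59% higher and 6.12% lower, so the share among P450 genes was close to that of all genes. The median change of the tested P450 genes was 0.01 on the log2 scale, against -0.02 over all genes.

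Cyp2a5, which oxidises nicotine and coumarin in the mouse, measured 5.92, 6.55 and 6.01 on CS 1 to 3, against 4.17, 4.83 and 4.88 on air 1 to 3. Every CS array lay above every air array. The difference was 1.53 ± 0.31 (log2, SE, n = 3 each), a 2.90-fold higher signal in CS, with an adjusted p of 0.0254 from limma. Cyp2a4, a steroid hydroxylase and near copy of Cyp2a5, measured 4.84, 5.57 and 4.95 on the CS arrays, against 3.01, 3.67 and 3.70 on the air arrays. It too had no overlap between the groups, and was 3.16-fold higher in CS (1.66 ± 0.33, adjusted p = 0.0238 from limma). Cyp2a22 measured -0.37, 0.63 and -0.17 on the CS arrays, against -2.27, -1.49 and -1.44 on the air arrays. Its groups did not overlap either, and it was 3.39-fold higher in CS (1.76 ± 0.40, adjusted p = 0.0338 from limma). Probe sequences were not used here, so how far the probes of Cyp2a5 and Cyp2a4 share signal cannot be told. The arrays of a group fell in the same order for the 3 genes, with CS 2 highest and CS 1 lowest among the CS arrays, and air 3 highest and air 1 lowest among the air arrays.

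Cyp3a13, a Cyp3a enzyme expressed outside the liver as well as in it, measured -1.39, -1.51 and -1.36 on the CS arrays, against -1.86, -2.31 and -1.91 on the air arrays. All CS values were above all air values, and the signal was 1.52-fold higher in CS (0.61 ± 0.13, adjusted p = 0.0299 from limma). Cyp2j9, a gene of the Cyp2j subfamily, measured -0.89, -0.92 and -1.10 on the CS arrays, against -0.08, -0.28 and -0.31 on the air arrays. It was 1.68-fold lower in CS (-0.75 ± 0.10, adjusted p = 0.00798 from limma), again without overlap. Cyp4b1-ps2, an annotated pseudogene of the Cyp4b subfamily, measured -3.22, -3.12 and -3.09 on the CS arrays, against -2.60, -2.72 and -2.89 on the air arrays. The CS values were all below the air values, by 1.32-fold on average (-0.41 ± 0.10, adjusted p = 0.0407 from limma).

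The Cyp2j9 call held with each of the 9 arrays left out, at adjusted p from 0.00982 to 0.0384 in limma. The Cyp2a4 call was lost without CS 2, CS 3 or air 1, the Cyp2a5 call without CS 2, CS 3 or any 1 air array, and the Cyp2a22 call without IQOS 2, CS 2, CS 3 or any 1 air array, at adjusted p up to 0.0833, 0.0853 and 0.111, while their log2 changes stayed between 1.44 and 1.80, 1.30 and 1.66, and 1.46 and 1.96. The Cyp3a13 call was lost without any 1 CS or air array (adjusted p up to 0.0779 in limma, change 0.47 to 0.69), and the Cyp4b1-ps2 call without IQOS 1, any 1 CS array, air 1 or air 2 (up to 0.130, change -0.48 to -0.34). With array row as a covariate, which sets the CS arrays against air 3 alone, 0 P450 genes were called, with changes of 1.28 for Cyp2a5, 1.42 for Cyp2a4, 1.47 for Cyp2a22, 0.49 for Cyp3a13, -0.67 for Cyp2j9 and -0.26 for Cyp4b1-ps2. That fit called 353 of all 37258 tested probes, against 3840 without the covariate.

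**Figure D1:**
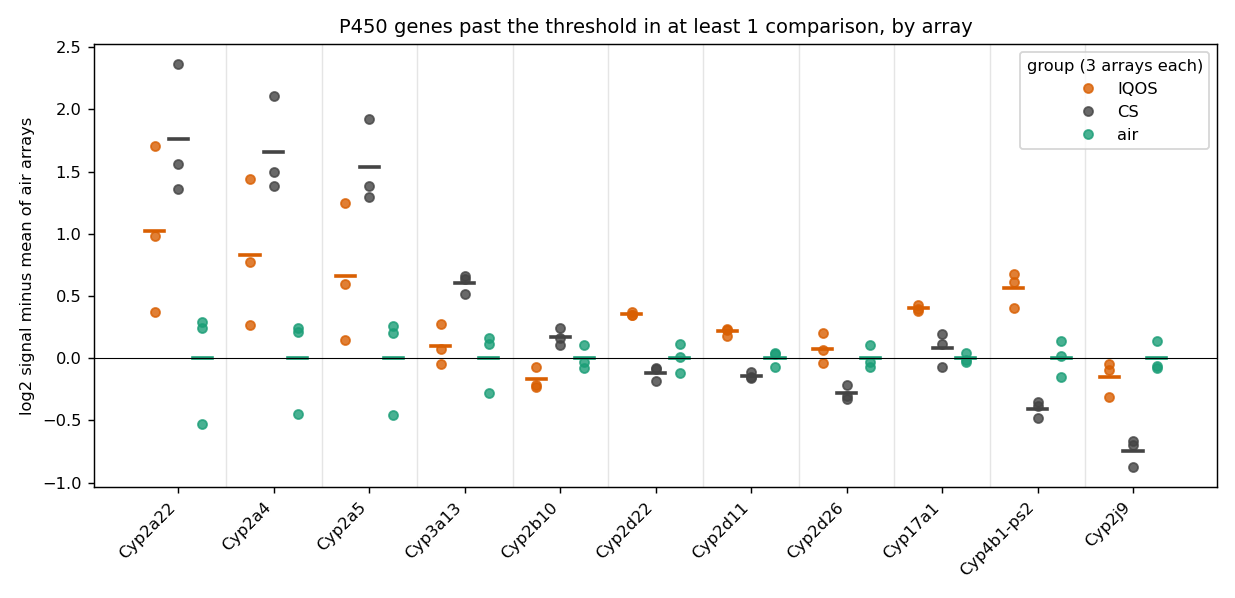
Log2 signal of the 11 P450 genes called in at least 1 comparison, minus the mean of the 3 air arrays, for each array of the IQOS, CS and air groups (points) with group means (bars). The Cyp2a genes have their highest means in CS and a wide spread in IQOS, and Cyp2j9 and Cyp4b1-ps2 are lowest in CS.

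The second question was which P450 genes differed after the IQOS aerosol. Of the 50 tested members, 3 were called higher in IQOS than in air lungs and 0 lower (6%), against 2.88% of all genes tested, 1.99% higher and 0.886% lower. By unadjusted p under 0.05, 11 members passed (22%), against 20.3% of all genes. The 3 called genes were Cyp4b1-ps2, Cyp17a1 and Cyp2d22. A positive change was measured for 39 of the 50 (78%), called or not, against 47.3% of all genes tested, and the median change was 0.10 on the log2 scale for the P450 genes and -0.01 for all genes. Because IQOS and slide coincide, a shift of this kind cannot be told apart from a difference between slides.

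Cyp4b1-ps2 measured -2.12, -2.06 and -2.33 on IQOS 1 to 3, against -2.60, -2.72 and -2.89 on air 1 to 3. Every IQOS value was above every air value, and the gene was 1.48-fold higher in IQOS (0.56 ± 0.10, adjusted p = 0.0271 from limma), while it was lower in CS. Cyp17a1, which makes androgen precursors from pregnenolone and progesterone in steroid-forming tissues, measured 2.75, 2.80 and 2.77 on the IQOS arrays, against 2.42, 2.36 and 2.34 on the air arrays. The 3 IQOS values lay close together above the air values, at 1.32-fold (0.40 ± 0.08, adjusted p = 0.0332 from limma). Cyp2d22, the mouse gene most often set beside human CYP2D6, measured -0.11, -0.10 and -0.08 on the IQOS arrays, against -0.45, -0.34 and -0.57 on the air arrays. It was 1.28-fold higher in IQOS without overlap (0.36 ± 0.07, adjusted p = 0.0396 from limma).

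The Cyp2a genes did not pass in IQOS. Cyp2a5 measured 4.77, 5.22 and 5.87 on IQOS 1 to 3, which overlap the air values, with a change of 0.66 ± 0.31 (adjusted p = 0.265 from limma). Cyp2a4 measured 3.73, 4.23 and 4.90 there (0.83 ± 0.33, adjusted p = 0.199 from limma) and Cyp2a22 measured -1.36, -0.75 and -0.03 (1.02 ± 0.40, adjusted p = 0.189 from limma), both without overlap with air. For all 3 genes IQOS 3 was the highest IQOS array and IQOS 1 the lowest. A p that misses the threshold does not show that IQOS and air lungs were alike.

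Each of the 3 IQOS calls depended on single arrays. Cyp4b1-ps2 lost its call without IQOS 1, IQOS 2, CS 2 or any 1 air array (adjusted p up to 0.0906 in limma, change 0.49 to 0.64), Cyp17a1 without any 1 IQOS or air array or CS 2 (up to 0.104, change 0.39 to 0.42), and Cyp2d22 without any array but air 2 (up to 0.133, change 0.30 to 0.41). With array row as a covariate, which here sets the IQOS arrays against air 1 and 2, the changes were 0.49, 0.39 and 0.30, and 0 P450 genes were called. That fit called 309 of all 37258 tested probes, against 1387 without the covariate.

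The third question was how the exposures differed from each other. In IQOS lungs 6 of the 50 tested members were higher than in CS lungs and 1 was lower (14%), against 10.1% of all genes tested, 4.94% higher and 5.17% lower. The higher genes were Cyp4b1-ps2, Cyp2j9, Cyp17a1 and the 3 Cyp2d genes Cyp2d22, Cyp2d11 and Cyp2d26, and the lower gene was Cyp2b10. This comparison shares its CS arrays with the first and its IQOS arrays with the second. IQOS and CS arrays also differed in both slide and row, so neither can be told apart from the exposure here.

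Cyp4b1-ps2 measured -2.12, -2.06 and -2.33 in IQOS lungs, against -3.22, -3.12 and -3.09 in CS lungs, a 1.96-fold higher signal in IQOS (0.97 ± 0.10, adjusted p = 0.00277 from limma). Cyp2j9 measured -0.27, -0.32 and -0.54 in IQOS lungs, against -0.89, -0.92 and -1.10 in CS lungs, and was 1.51-fold higher in IQOS (0.59 ± 0.10, adjusted p = 0.0145 from limma). Against air, Cyp2j9 in IQOS lungs differed by -0.15 ± 0.10 (adjusted p = 0.420 from limma), with overlapping groups. Cyp17a1 measured 2.57, 2.48 and 2.30 in CS lungs, below all IQOS values, and was 1.25-fold higher in IQOS (0.32 ± 0.08, adjusted p = 0.0365 from limma).

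Cyp2d22 measured -0.55, -0.64 and -0.53 in CS lungs, all below the IQOS values given above, and was 1.39-fold higher in IQOS (0.47 ± 0.07, adjusted p = 0.00974 from limma). Cyp2d11 measured 0.98, 0.99 and 0.93 in IQOS lungs, against 0.64, 0.59 and 0.60 in CS lungs, 1.28-fold higher in IQOS (0.35 ± 0.06, adjusted p = 0.0108 from limma). Cyp2d26 measured -1.27, -1.41 and -1.52 in IQOS lungs, against -1.69, -1.80 and -1.78 in CS lungs (0.36 ± 0.08, adjusted p = 0.0349 from limma). The groups did not overlap in any of these Cyp2d genes. The second tested probe of Cyp2d26, which is dimmer, gave -0.10 in the same comparison (adjusted p = 0.536 from limma), so its probes disagree.

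Cyp2b10, the mouse enzyme induced by phenobarbital in liver, measured 6.44, 6.60 and 6.46 in IQOS lungs, against 6.91, 6.83 and 6.78 in CS lungs. All IQOS values were below all CS values (-0.34 ± 0.08, adjusted p = 0.0338 from limma), and its second probe gave -0.35 (adjusted p = 0.0283 from limma). Against air, its representative probe gave -0.17 in IQOS and 0.17 in CS lungs, and neither passed. The Cyp2a genes were measured lower in IQOS than in CS lungs, by -0.87 ± 0.31 for Cyp2a5, -0.83 ± 0.33 for Cyp2a4 and -0.74 ± 0.40 for Cyp2a22, but the smallest adjusted p was 0.119 in limma, so the difference between the exposures was not shown for them. Cyp3a13 gave -0.51 ± 0.13, which just missed the threshold (adjusted p = 0.0501 from limma).

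The calls of Cyp4b1-ps2, Cyp2d22 and Cyp2d11 between IQOS and CS held with each array left out (adjusted p up to 0.0145, 0.0410 and 0.0460 in limma), and that of Cyp2j9 was lost only without IQOS 2 (0.0511, change 0.57). Calls were lost for Cyp17a1 without any array but CS 1 (adjusted p up to 0.0999 in limma, change 0.25 to 0.38), for Cyp2d26 without IQOS 1, IQOS 2, CS 2, CS 3 or air 1 (up to 0.109, change 0.30 to 0.42), and for Cyp2b10 without IQOS 1, IQOS 3, any 1 CS array or air 3 (up to 0.0944, change -0.39 to -0.30). With array row as a covariate 0 P450 genes were called, and the changes were 0.74 for Cyp4b1-ps2, 0.47 for Cyp2j9, 0.30 for Cyp2d22, 0.25 for Cyp2d11, 0.25 for Cyp2d26, 0.28 for Cyp17a1 and -0.38 for Cyp2b10. Here the row effect came only from air 3 against air 1 and 2. That fit called 95 of all 37258 tested probes, against 3590 without the covariate.

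**Figure D2:**
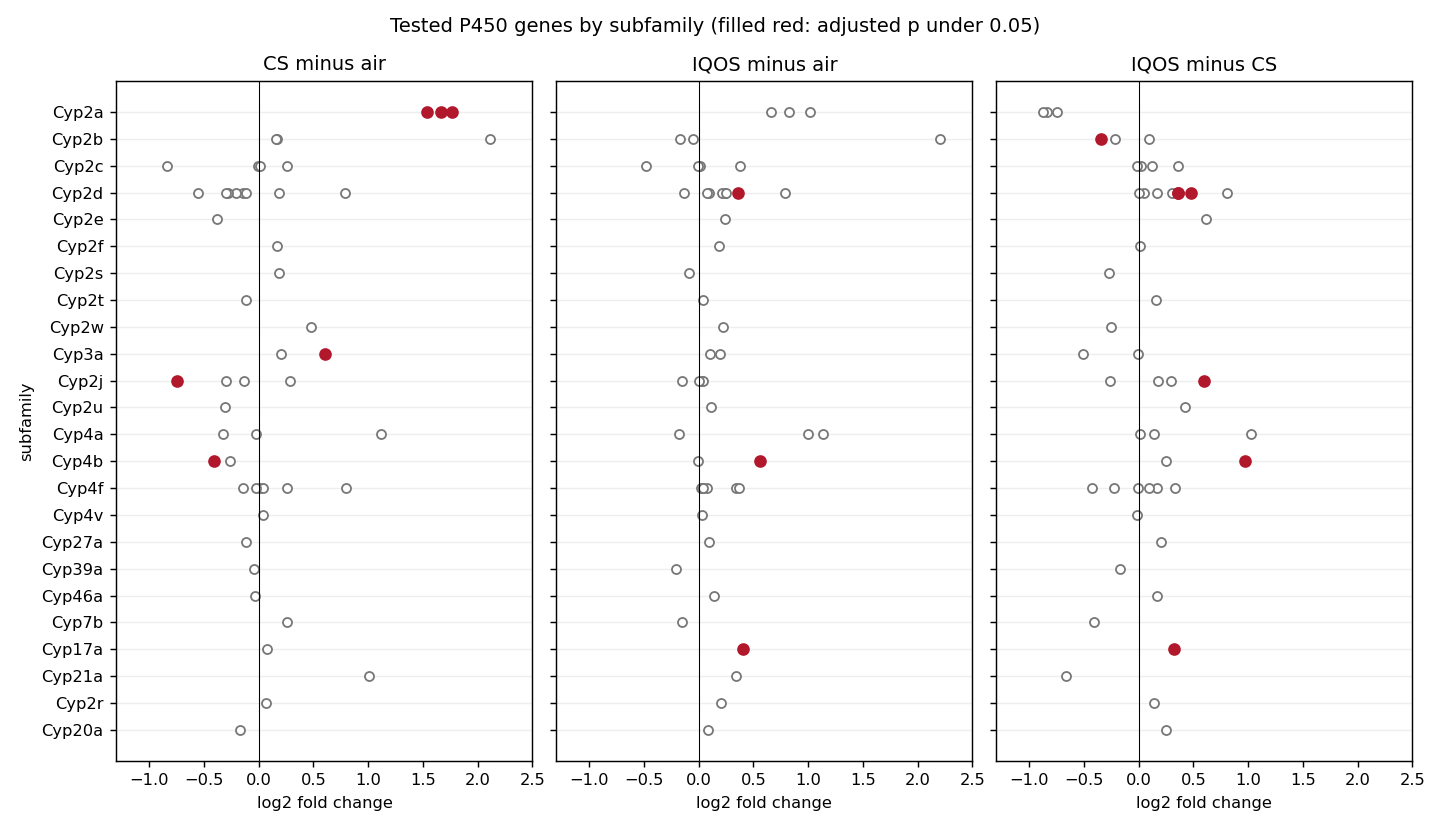
Log2 fold change of the 50 tested P450 genes by subfamily, in 3 panels, 1 for each comparison, with 1 circle per gene and filled circles for adjusted p under 0.05. All 3 tested Cyp2a genes are called in CS minus air, and 3 Cyp2d genes in IQOS minus CS.

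Roles were assigned by subfamily symbol alone. The pseudogene Cyp4b1-ps2 therefore counted with the fatty acid genes, and Cyp2a4 and Cyp2c23 with the foreign-compound genes. By role, 25 of 50 foreign-compound genes were tested, 17 of 28 for fatty acids and eicosanoids, 4 of 6 for bile acids and oxysterols, 2 of 6 for steroid hormones, 1 of 3 for vitamin D, and Cyp20a1, an enzyme with no settled substrate. In CS against air, where 5.59% of all tested genes were higher and 6.12% lower, 4 of the 25 foreign-compound genes were higher and 0 lower, and in the fatty acid group 0 of 17 were higher and 2 lower. The 4 were the 3 tested Cyp2a genes and Cyp3a13, and the 2 were Cyp2j9 and Cyp4b1-ps2. Probe sequences were not used, so genes of 1 subfamily may share signal and may not count independently. In IQOS against air, where 1.99% of all genes were higher and 0.886% lower, 1 of 25, 1 of 17 and 1 of the 2 steroid genes (Cyp17a1) were higher. In IQOS against CS, where 4.94% of all genes were higher and 5.17% lower, 3 of 25 were higher and 1 lower, and 2 of 17 and again Cyp17a1 were higher. No gene of the bile acid or vitamin D groups was called in any of the 3 comparisons by limma, although 1 bile acid gene passed an unadjusted p of 0.05 in IQOS against air, 1 in IQOS against CS, and Cyp2r1 in IQOS against air. Of all genes tested, 20.3% passed it in IQOS against air and 29.3% in IQOS against CS.

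Cyp2f2, Cyp4b1 and Cyp2s1, enzymes of the airway epithelium, were called in no comparison, unlike Cyp2a5 and Cyp2b10. Cyp2f2, which activates naphthalene in mouse club cells, measured 7.95, 8.16 and 8.08 in IQOS lungs, 8.13, 8.11 and 7.91 in CS lungs and 7.85, 7.96 and 7.84 in air lungs. The groups overlapped, with changes of 0.17 ± 0.09 in CS and 0.18 ± 0.09 in IQOS against air (adjusted p = 0.232 and 0.264 from limma). Cyp4b1, which activates ipomeanol and hydroxylates fatty acids, measured 5.54, 5.68 and 5.47 in IQOS lungs, 5.30, 5.28 and 5.37 in CS lungs and 5.61, 5.65 and 5.46 in air lungs. Every CS value was below every other value, but the change of -0.26 ± 0.08 against air did not pass (adjusted p = 0.0749 from limma). Cyp2s1, an epithelial enzyme, measured 5.16, 5.45 and 5.43 in IQOS lungs, 5.69, 5.65 and 5.52 in CS lungs and 5.47, 5.46 and 5.37 in air lungs, and passed in no comparison (0.19 ± 0.09 in CS against air, adjusted p = 0.218 from limma).

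On chromosome 7 the Cyp2a genes lie in a cluster with Cyp2s1, Cyp2b, Cyp2g1, Cyp2f2 and Cyp2t4 genes. Of 13 cluster genes on the array 9 were tested, and in CS against air the 3 Cyp2a genes were called while Cyp2s1, Cyp2b10, Cyp2b9, Cyp2f2 and Cyp2t4 gave changes from -0.12 to 0.19. Cyp2b13, named after its values were seen, gave 2.11 ± 0.70 in CS and 2.20 ± 0.70 in IQOS against air (adjusted p = 0.0915 and 0.123 from limma). It was well above background on all 3 arrays of each exposure and on 1 of 3 air arrays, so it passed the filter through the exposed groups, and it measured -4.05, -2.47 and -3.48 in IQOS lungs, -3.02, -3.03 and -4.23 in CS lungs and -7.01, -4.41 and -5.19 in air lungs.

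**Figure D3:**
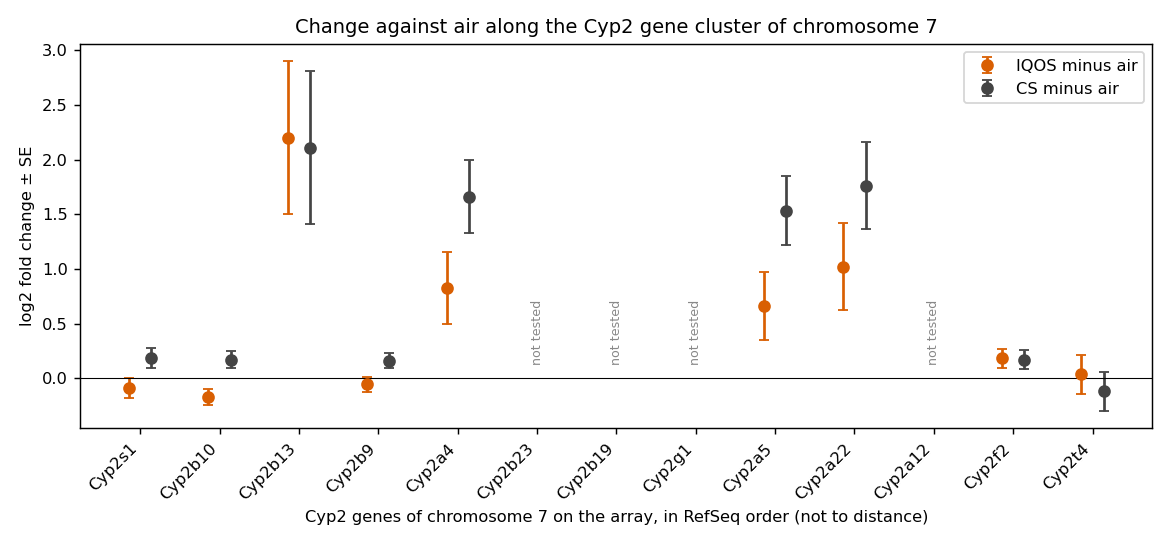
Log2 fold change with SE of IQOS minus air and CS minus air for the Cyp2 genes of the chromosome 7 cluster, in RefSeq order. Cyp2a4, Cyp2a5 and Cyp2a22 lie between 1.53 and 1.76 in CS minus air, Cyp2b13 lies at 2.11 with a larger error and did not pass, and the other tested genes lie between -0.12 and 0.19.

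Among the Cyp2c genes, Cyp2c23, an arachidonic acid epoxygenase long called Cyp2c44, measured -3.88, -4.07 and -4.17 in IQOS lungs, -4.34, -4.26 and -4.61 in CS lungs and -3.93, -3.01 and -3.75 in air lungs. All CS values were lowest, but the change of -0.84 ± 0.22 against air just missed the threshold (adjusted p = 0.0522 from limma). Only 4 of 16 Cyp2c genes were tested, since 11 were not well above background on any array. Cyp2c29, a liver enzyme, was among those.

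Cyp2e1, which oxidises ethanol and small solvents, measured 1.98, 1.77 and 2.60 in IQOS lungs, 1.49, 1.89 and 1.13 in CS lungs and 2.41, 1.42 and 1.82 in air lungs. The groups overlapped in every comparison, and IQOS minus CS gave 0.61 ± 0.31 (adjusted p = 0.242 from limma). Of the 8 tested Cyp2d genes, Cyp2d40 was named after its values were seen. It was well above background on 3 IQOS, 2 CS and 0 air arrays, so it was tested only because of IQOS. Its mean was at least 1.13-fold higher in each exposure than in air, but its IQOS and air values overlapped. Neither comparison passed (adjusted p = 0.183 in IQOS and 0.133 in CS from limma). The other tested Cyp2d genes gave changes from -0.55 to 0.19 in CS against air, where limma called 0. Cyp2d11 and Cyp2d26 had an unadjusted p under 0.05 there, as did Cyp2d40 and 31.2% of all genes tested. In IQOS against air the others gave changes from -0.14 to 0.36, and 1 was called. In IQOS against CS they gave changes from 0.05 to 0.81, and 3 were called.

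Of the fatty acid enzymes, Cyp4f18, which oxidises leukotriene B4 in neutrophils, measured 2.78, 1.70 and 2.51 in IQOS lungs, 2.42, 2.87 and 2.98 in CS lungs and 1.98, 1.80 and 2.09 in air lungs. CS values were all above air values, with a change of 0.80 ± 0.27 that did not pass (adjusted p = 0.0980 from limma). It passed without IQOS 2, the lowest IQOS array, at 0.0341. Beside it, the signals of 7 neutrophil markers were summed, in multiples of the array's 75th percentile. The sums ran from 173.2 to 426.4 in IQOS, 330.5 to 739.5 in CS and 182.5 to 228.8 in air lungs. Over all genes tested, 5.59% were called higher in CS against air, and of the 7 markers 1 was. That marker, Cd177, was well above background on 2 IQOS, 3 CS and 1 air array, so it too was tested only because of CS. The part of neutrophils in the Cyp4f18 signal was not tested.

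The other Cyp4f genes tested, Cyp4f16 among them, gave changes from -0.14 to 0.26 in CS and 0.02 to 0.34 in IQOS against air. Cyp4v3, a fatty acid omega-hydroxylase, differed by 0.04 and 0.03 in CS and IQOS. Cyp4a12a, a hydroxylase of arachidonic acid, had overlapping groups, at -4.40, -3.39 and -2.97 in IQOS lungs, -3.92, -3.97 and -2.92 in CS lungs and -6.49, -3.38 and -4.31 in air lungs. Cyp2u1, a hydroxylase of long-chain fatty acids, was well above background on all IQOS arrays, 0 CS arrays and 2 air arrays, and measured -4.37, -5.22 and -4.73 in IQOS lungs, -5.51, -4.89 and -5.21 in CS lungs and -5.27, -4.73 and -4.67 in air lungs. The groups overlapped. In the Cyp2j subfamily, Cyp2j6 gave -0.14 in CS against air with its representative probe and -0.48 with its dimmer probe (adjusted p = 0.434 and 0.0357 from limma), so its probes disagree on the call. Cyp2j8, named after its values were seen, gave -0.29 ± 0.08 (adjusted p = 0.0507 from limma).

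Of the bile acid and oxysterol enzymes, Cyp7b1, the oxysterol 7-alpha-hydroxylase, measured -0.31, -0.49 and -0.34 in IQOS lungs, -0.26, -0.07 and 0.43 in CS lungs and -0.27, -0.36 and -0.04 in air lungs. IQOS lay below CS without overlap, but the change of -0.41 ± 0.17 did not pass (adjusted p = 0.162 from limma). Cyp39a1, which hydroxylates 24-hydroxycholesterol, gave -0.21 ± 0.08 in IQOS against air (adjusted p = 0.196 from limma), and Cyp27a1, the sterol 27-hydroxylase, and Cyp46a1, the cholesterol 24-hydroxylase, gave -0.12 and -0.03 in CS and 0.09 and 0.14 in IQOS against air. Cyp2r1, which makes 25-hydroxyvitamin D, measured -0.04, -0.08 and -0.07 in IQOS lungs, -0.19, -0.24 and -0.18 in CS lungs and -0.37, -0.21 and -0.22 in air lungs. The IQOS values were all highest, but 0.21 ± 0.06 against air did not pass (adjusted p = 0.104 from limma). Cyp20a1 gave -0.17 in CS and 0.08 in IQOS against air, with overlap in both. Cyp11a1, the first enzyme of steroid synthesis, Cyp24a1, which breaks down vitamin D, and Cyp27b1, which makes its active form, were each well above background on 1 array, CS 1, air 2 and CS 2, and were not tested.

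**Figure D4:**
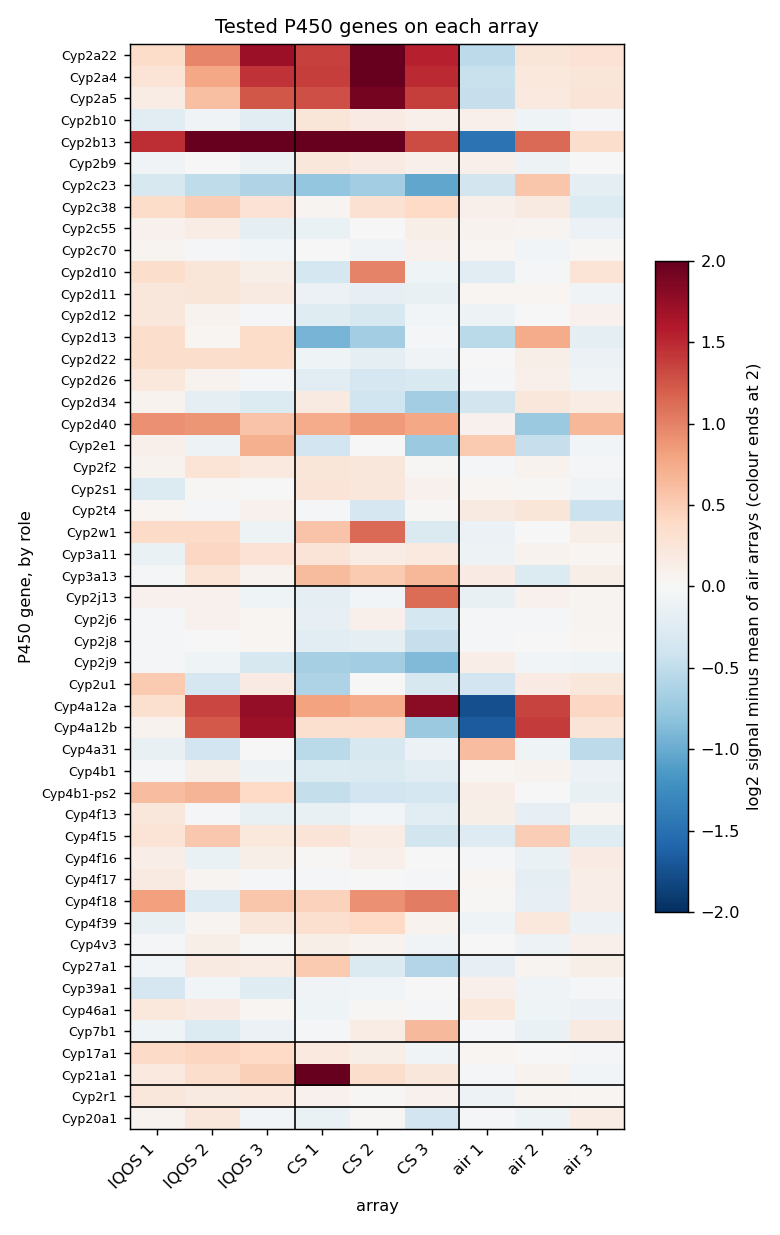
Log2 signal of the 50 tested P450 genes on each of the 9 arrays, minus the mean of the air arrays, with genes ordered by role (black lines). For the Cyp2a genes, the arrays furthest above the air mean are the CS arrays and IQOS 3, with IQOS 1 and IQOS 2 less far above it. Cyp4a12a and Cyp4a12b differ most among arrays of 1 group.

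Of the 94 genes, 45 were well above background on all 9 arrays, 30 on none and 13 on 1 array. Of these 13 genes 4 were seen on air 3 alone, named after their values were seen (Cyp2ab1, Cyp2d9, Cyp2g1 and Cyp3a41a). Over all genes, 160 of 1086 seen on a single array were on air 3, and CS 3 had more, with 174. On air 3 Alb and Serpina1a, liver markers, measured -0.76 and -0.24, above every other array. Of 6 hepatocyte markers 2 were well above background on every array, with sums from 0.598 to 0.852 in IQOS, 0.599 to 0.958 in CS and 0.542 to 2.38 in air lungs, and their part in the P450 values of air 3 was not tested. Cyp21a1, the steroid 21-hydroxylase, also named after its values were seen, measured -0.43 on CS 1 and between -2.92 and -2.38 on the other arrays.

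Over all genes tested, 5.59% were called higher and 6.12% lower in CS against air, and 1.99% and 0.886% in IQOS against air. These shares stand behind each marker count that follows. The summed signal of 10 club cell markers ran from 1064 to 1255 in IQOS, 1141 to 1326 in CS and 927.2 to 1039 in air lungs, with 1 of 10 called higher in CS and 0 in IQOS against air. That of 10 macrophage markers ran from 144.8 to 174.2 in IQOS, 279.4 to 377.6 in CS and 128.3 to 152.0 in air lungs, with 7 of 10 called higher in CS and 0 in IQOS. That of 9 adipocyte markers ran from 35.4 to 61.0 in IQOS, 19.8 to 38.9 in CS and 41.9 to 63.3 in air lungs, with 2 of 9 called lower in CS. That of 6 fibroblast markers ran from 75.8 to 79.7 in IQOS, 53.7 to 69.8 in CS and 87.7 to 99.6 in air lungs, with 3 of 6 called lower in CS. That of 6 smooth muscle markers ran from 74.8 to 96.5 in IQOS, 60.4 to 88.0 in CS and 99.99 to 111.8 in air lungs, with 2 of 6 called lower in CS. That of 8 endothelial markers ran from 95.02 to 126.9 in IQOS, 97.7 to 117.7 in CS and 89.4 to 117.7 in air lungs, with 2 of 8 called lower in CS. That of 10 type II cell markers ran from 1258 to 1415 in IQOS, 1450 to 1528 in CS and 1356 to 1394 in air lungs, with 1 of 10 called higher in CS. Their part in the P450 differences was not tested.

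Genes of the electron and haem supply of P450 enzymes were examined next. They included Hmox1, which breaks haem down and gave 1.06 ± 0.63 in CS against air (adjusted p = 0.306 from limma). In CS against air 3 of 12 were higher and 0 lower, and in IQOS against CS 1 was lower. In IQOS against air 0 were called by limma (3 at an unadjusted p under 0.05, as were 20.3% of all genes tested). Over all tested genes, 5.59% were higher and 6.12% lower in CS against air, 1.99% and 0.886% in IQOS against air, and 4.94% and 5.17% in IQOS against CS, and the same shares stand behind the receptors and companion enzymes that follow. The electron and haem genes had median changes of 0.05 in CS against air, 0.01 in IQOS against air and -0.10 in IQOS against CS on the log2 scale. Alas1, the first enzyme of haem synthesis, measured 7.03, 6.75 and 6.48 in CS lungs, against 5.89, 6.20 and 6.26 in air lungs (0.64 ± 0.16, adjusted p = 0.0451 from limma). Por, the reductase that passes electrons to microsomal P450 enzymes, measured 5.95, 5.87 and 5.70 in CS lungs, against 5.41, 5.42 and 5.37 in air lungs (0.44 ± 0.08, adjusted p = 0.0166 from limma), and Fdx1, the mitochondrial ferredoxin, was higher by 0.41 ± 0.07 (adjusted p = 0.0143 from limma). In all 3 genes every CS value was above every air value. In IQOS against CS Fdx1 was lower by -0.41 (adjusted p = 0.0127 from limma).

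Among 13 tested nuclear receptors and factors, 1 was called in CS against air, 2 in IQOS against CS and 0 in IQOS against air, where 2 had an unadjusted p under 0.05 in limma. Of all genes tested, 20.3% had such a p there. The median changes of the 13 were -0.07 in CS against air, -0.12 in IQOS against air and -0.05 in IQOS against CS on the log2 scale. Hnf4a, a factor that drives liver P450 genes, measured -1.36, -0.66 and -0.77 in CS lungs, against -5.06, -3.55 and -4.20 in air lungs (3.34 ± 0.53, adjusted p = 0.0129 from limma). It was well above background on 2 of 3 IQOS, 3 of 3 CS and 2 of 3 air arrays, so it was tested only because of CS, where it was high, and the sizes of its differences rest partly on signals near background. In IQOS lungs it measured -6.32, -4.93 and -4.43, below all CS values (-4.30 ± 0.53 for IQOS minus CS, adjusted p = 0.00507 from limma). Nr1i3, the receptor CAR that drives Cyp2b10 in liver, measured 1.26, 1.09 and 0.75 in IQOS lungs, against 0.57, 0.13 and 0.11 in CS lungs (0.76 ± 0.16, adjusted p = 0.0270 from limma), where Cyp2b10 was lower in IQOS. Of 8 companion enzymes, the aldehyde oxidase Aox3 was higher in CS (0.37, adjusted p = 0.0179 from limma) and in IQOS (0.37, adjusted p = 0.0328 from limma) against air, and the flavin monooxygenase Fmo1 was lower in CS (-0.66, adjusted p = 0.0182 from limma).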

How the data were processed

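Whole-lung RNA was measured on 9 one-colour arrays, 3 in each group, grouped by the labels. The deposited files give each spot's intensity from the authors' run of Feature Extraction (version 10.7.1.1, per the file headers), which is background-subtracted with no scaling between arrays. The values of the deposited matrix were found to be a linear ratio to the 75th percentile of each array, and served as an alternative.

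Outlier spots were left out, log2 signals were averaged per probe, and the log2 of each array's 75th percentile was subtracted. A probe was tested when 2 or more arrays of each group gave a value and at least 1 group was well above background on each array with a value. All 37258 such probes were fitted with limma 3.58.1 in R 4.3.3 (group means, all 9 arrays; version 1.17.8 of the data.table package), with Benjamini-Hochberg adjustment over them. A gene was represented by its probe with the highest mean signal. The fit was tested on simulated data. Signal over background and the number of arrays limit the precision. The labels do not say that the arrays came from separate mice, so the spread behind the p-values may be technical.

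The genes named were a fixed set of P450 genes, every member called in a comparison, and the member with the smallest p in each subfamily with at least 3 tested members, 32 in all. Any other gene named was chosen after its values were seen. The members, gene lists and alternatives were chosen with earlier results of these data known. Tried as alternatives were quantile normalization, the series matrix, normexp background correction (offset 50), median centring, leaving out the filter on dim probes, requiring signal above background on all 9 arrays, robust eBayes with an intensity trend, array numbers as a replicate block, array row as a covariate, the arrays of the compared groups alone, the mean of all tested probes, an adjusted p under 0.1, and each array left out.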

Additional observations from a re-analysis of the deposited data

How the results depend on the processing

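Of 16 calls of single P450 genes, 0 reversed in 320 refits, 202 kept the call and 118 lost it. Single genes were followed in the refits only for the 32 named by rule, and other members entered the counts alone. Among the 32, results that were not called gained a call in 20 refits, all at adjusted p under 0.05 in limma. With normexp these were Cyp2c23 (-0.36, 0.0355) and Cyp4b1 (-0.27, 0.0446) in CS against air, Cyp2r1 (0.29, 0.0283) and Cyp2d11 (0.28, 0.0252) in IQOS against air, and Cyp2s1 (-0.34, 0.0349) and Cyp2r1 (0.24, 0.0347) in IQOS against CS. Cyp2c23 in CS against air also passed with quantile normalization, signal on all 9 arrays, and the intensity trend (0.0458 to 0.0471). Cyp4b1 passed with quantile normalization and the trend in CS against air (0.0264 and 0.0389) and in IQOS against CS (0.0354 and 0.0470). Cyp3a13 in IQOS against CS passed with quantile normalization, median centring, signal on all 9 arrays, the trend and without air 2 (0.0254 to 0.0477), and Cyp4f18 in CS against air with the arrays of the compared groups alone and without IQOS 2 (0.0461 and 0.0341). The count for CS against air was 6, and was 12 at an adjusted p under 0.1, 1 with no filter on dim probes, 0 with array row as a covariate and from 1 to 6 with an array left out. For IQOS against air it was 3, and was 0 with median centring, 0 with no filter, 0 with array row, 1 with the arrays of the compared groups alone and 0 to 2 with an array left out. For IQOS against CS it was 7, and was 12 at an adjusted p under 0.1, 0 with array row, 4 with the arrays of the compared groups alone and 4 to 7 with an array left out. With the replicate block the counts were 4, 0 and 5. Arrays with the same number correlated between -0.08 and 0.20 in their deviations from the group means over 9 pairs, against -0.25 to 0.12 over 18 pairs with different numbers. Not every same-number pair was over 0.1 and IQOS 2 correlated more with CS 1 (0.12) than with CS 2 (0.01), so the samples were not treated as paired. Leaving out CS 2, CS 3 or air 1 gave 1 and leaving out air 2 gave 2 in CS against air. Leaving out IQOS 1, IQOS 2, CS 2, air 1 or air 3 gave 0, and IQOS 3 or air 2 gave 1, in IQOS against air. Leaving out IQOS 1, IQOS 2, CS 2 or CS 3 gave 4 in IQOS against CS. No setting moved the median of all probes by over 0.1 on the log2 scale. Calls over all tested probes moved as well. In CS against air they were 3840 of 37258, and 1553 of 56196 with no filter, 353 with array row and 731 without air 1. In IQOS against air they were 1387, and 780 with median centring, 358 with no filter and 309 with array row. With the compared groups alone they were 408 there. In IQOS against CS they were 3590, and 95 with array row and 1710 with the compared groups alone. The cause of these changes was not tested.

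Among the 32 genes named by rule, the changes that crossed 0 were all uncalled. With normexp they were Cyp46a1 (0.033) in CS against air, and Cyp4f16 (-0.0042), Cyp2u1 (-0.049) in IQOS against air, and Cyp2f2 (-0.082) in IQOS against CS. With quantile normalization they were Cyp4v3 (0.0040) in IQOS against CS. With median centring they were Cyp4v3 (-0.0055) in IQOS against air, and Cyp2f2 (-0.013), Cyp4a12a (-0.010) in IQOS against CS. With array row they were Cyp46a1 (0.090), Cyp4f16 (-0.12), Cyp4v3 (-0.068), Cyp2d22 (0.0012) in CS against air, and Cyp2f2 (-0.054), Cyp46a1 (-0.014), Cyp4f16 (0.23), Cyp4v3 (0.15) in IQOS against CS. With the mean of all tested probes they were Cyp4f16 (-0.013) in CS against air, and Cyp2d26 (-0.032), Cyp2j6 (-0.11), Cyp4f16 (-0.00086) in IQOS against air, and Cyp4f16 (0.012) in IQOS against CS. With an array left out, the ranges in CS against air were -0.44 to 0.12 for Cyp27a1, -0.090 to 0.073 for Cyp46a1, -0.077 to 0.0078 for Cyp39a1, -0.025 to 0.12 for Cyp4f16 and -0.011 to 0.095 for Cyp4v3. In IQOS against air they were -0.029 to 0.12 for Cyp4f16, -0.088 to 0.34 for Cyp2u1, -0.14 to 0.0063 for Cyp2s1, -0.069 to 0.038 for Cyp4b1, -0.025 to 0.082 for Cyp4v3, -0.0036 to 0.50 for Cyp2e1 and -0.039 to 0.18 for Cyp3a13. In IQOS against CS they were -0.066 to 0.027 for Cyp4v3, -0.058 to 0.070 for Cyp2f2, -0.052 to 0.081 for Cyp4f16, -0.29 to 0.42 for Cyp4a12a and -0.029 to 0.53 for Cyp27a1.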

Other observations

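The second probe of Cyp2j13, a gene of the Cyp2j subfamily named after its values were seen, gave 0.77 in IQOS against air and 0.79 in IQOS against CS (adjusted p = 0.0141 and 0.00678 from limma), while its brighter representative probe gave 0.03 and -0.26 (adjusted p = 0.970 and 0.615 from limma). CAAAGTCC, a motif chosen after the Cyp2a promoters were seen, stood in 14 of 77 promoters of 67 P450 genes (18.2%), against 1.4% of all promoters. Many of these promoters belong to neighbouring copies with alike sequence, so they are not independent.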
